A study of Caenorhabditis elegans with 51 samples.

Results

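The 86 genes described here are the math and bath genes of Caenorhabditis elegans, chosen by name, with earlier results of these data known. They are every gene whose symbol begins with math or bath followed by a number, 49 math and 37 bath genes out of 20202 gene symbols with small RNA values. The measurement is the small RNA against each gene in the material precipitated with HRDE-1, in the material precipitated with CSR-1, and in the input of those precipitations. All 6 libraries, 2 for each of HRDE-1 sRIP, CSR-1 sRIP and sRIP input, came from young adults of strain CSS342, which carries Cer3(red20), with an oma-1 fragment inserted in the retrotransposon Cer3, and tagged forms of both Argonautes, SF-HRDE-1 and c-myc-CSR-1. An sRIP is an immunoprecipitation of an Argonaute followed by sequencing of the small RNA bound to it, and here the library method did not depend on a 5′ monophosphate, so that small RNAs carrying other 5′ ends could be captured. The groups differ only in the precipitation, since the insertion and both tags are present in every library, and no library from untagged animals is named among the 6, so carry-over on the beads cannot be told apart from binding. The other 45 samples of the series were not used here.

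MATH proteins carry the meprin and TRAF homology domain, a fold that binds peptides of other proteins. BATH proteins pair this domain with a BTB domain, which binds the CUL-3 scaffold, and such proteins act as adaptors that bring substrates to CUL-3 ubiquitin ligases; MEL-26, which brings the katanin subunit MEI-1 to the ligase after meiosis, is the textbook case in the worm embryo. Both families have expanded in C. elegans, and most members have no assigned function. HRDE-1 is a nuclear Argonaute of the germline that carries secondary small interfering RNAs and directs inherited transcriptional silencing, whereas CSR-1 carries secondary small interfering RNAs against genes expressed in the germline and is known for allowing their expression. What is counted below is small RNA matching each gene, not the messenger RNA of the gene.

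The values are reads scaled to the length of the gene model and to the total of the library (RPKM), deposited by the authors. The totals deduced for the libraries were 4872549 and 3248065 reads for HRDE-1 sRIP, 4992358 and 2991634 for CSR-1 sRIP, and 2728020 and 2104162 for the input. With model lengths deduced from the same values, all 80624 values above 0 were whole multiples of 1 read, within a relative tolerance of 1e-06. The lengths were set to make them whole, so this is no check on the totals. Of 16657 models with reads and an annotation, 4126 (24.77%) fitted an annotated length. The read numbers given for single genes are the smallest that the values allow. Over 9246 genes with at least 10 reads in the input, the chi-square of the 2 libraries divided by its degrees of freedom was 0.969, within sampling noise, so the pair was counted as 1 sample in the tests, although the 2276 genes with at least 300 reads differed slightly more than noise allows (1.1). The same quantity was 1.89 for the HRDE-1 pair and 1.04 for the CSR-1 pair. No label says that replicates came from separate cultures, so the p-values measure the spread between these libraries, which may be technical. Each family holds close paralogs, and how reads matching several genes or either strand were assigned is not given in these sources, so the division of reads among related or overlapping genes is uncertain.

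Small RNA was abundant against bath genes and scarce against most math genes. The median bath gene had 48.96 and 47.4 RPKM in HRDE-1 sRIP, 18.3 and 17.9 RPKM in CSR-1 sRIP, and 36.5 and 38.4 RPKM in the input. The median math gene had 1.07 and 0.841 RPKM in HRDE-1 sRIP, no reads in either CSR-1 library, and 0.643 and 0.532 RPKM in the input. Over all 20202 genes the medians were 1.43 and 1.2 RPKM in HRDE-1 sRIP, 0.273 and 0.267 RPKM in CSR-1 sRIP, and 1.14 and 1.12 RPKM in the input, so the typical bath gene stood far above the typical gene in every library, and the typical math gene stood below it. A mean input of at least 10 RPKM was found for 27 of 37 bath genes and 7 of 49 math genes, and a mean of at least 100 RPKM for 11 bath genes and 1 math gene, math-1. Whole animals were used, so fewer cells of a type and less RNA per cell cannot be told apart in any of these values.

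**Figure D1:**
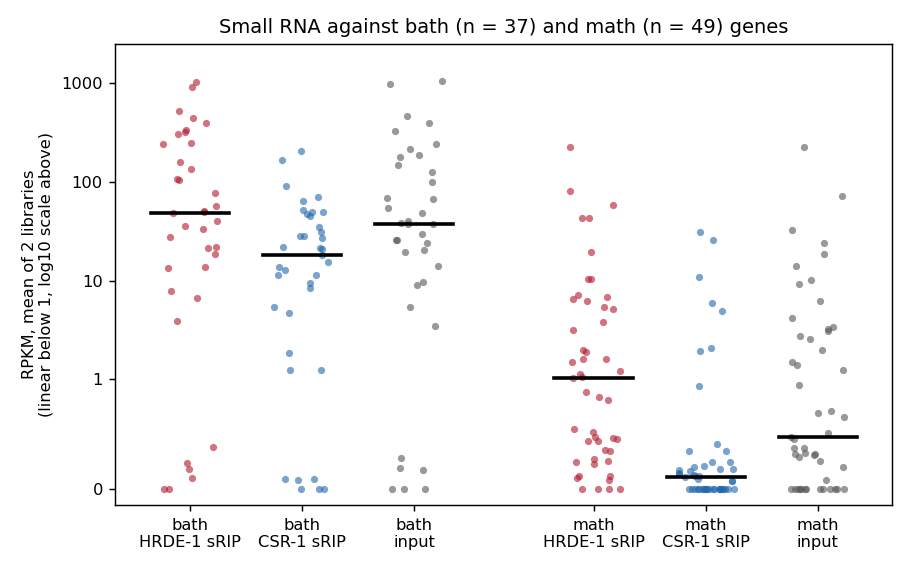
Small RNA against each bath gene (left, n = 37) and each math gene (right, n = 49) in HRDE-1 sRIP, CSR-1 sRIP and the input, as the mean RPKM of 2 libraries on an axis that is linear below 1 and log10 above. Each point is 1 gene and the bar is the median; 27 bath genes and 7 math genes lie at 10 RPKM or more in the input.

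As a share of all reads, bath genes took 0.547% (95% Wilson interval 0.540 to 0.553%) and 0.654% (0.646 to 0.663%) of the HRDE-1 libraries, 0.126% (0.123 to 0.130%) and 0.144% (0.139 to 0.148%) of the CSR-1 libraries, and 0.515% (0.507 to 0.524%) and 0.545% (0.535 to 0.555%) of the input libraries. Math genes took 0.0458% (0.0440 to 0.0478%) and 0.0484% (0.0460 to 0.0508%) of the HRDE-1 libraries, 0.0138% (0.0128 to 0.0149%) and 0.0145% (0.0132 to 0.0159%) of the CSR-1 libraries, and 0.0363% (0.0341 to 0.0387%) and 0.0399% (0.0373 to 0.0427%) of the input libraries. For both families the CSR-1 libraries were the lowest of the 6 and did not overlap the others. These intervals cover counting error only, because no molecular identifier is named in the labels. By the deduced reads, gene models took 39.8% and 42.7% of the CSR-1 libraries, 48.5% and 50.45% of the HRDE-1 libraries, and 49.96% and 51.9% of the input libraries. Shares and RPKM are relative to all reads, so this lowers values in CSR-1 sRIP for genes in general. The total for bath genes rested to a large extent on bath-45 and bath-20, which together held 37.7% and 41.2% of the bath reads in HRDE-1 sRIP, 31.9% and 35.9% in CSR-1 sRIP, and 46.1% and 47.6% in the input.

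The 4 bath genes with the most small RNA in the input all encode proteins for which no role is given here. Bath-45 (F29C12.5) had 895 and 1174 RPKM in HRDE-1 sRIP, 178 and 232 RPKM in CSR-1 sRIP, and 1016 and 1110 RPKM in the input, more in the input than 99.95% of all genes in the table. Bath-20 (B0047.1a) had 792 and 1027 RPKM in HRDE-1 sRIP, 150.1 and 186 RPKM in CSR-1 sRIP, and 934 and 1016 RPKM in the input. In both genes the HRDE-1 libraries bracketed the input, and the CSR-1 libraries lay well below. Bath-24 (B0047.3) had 458 and 583 RPKM in HRDE-1 sRIP, 67.6 and 72.0 RPKM in CSR-1 sRIP, and 451 and 475 RPKM in the input. Bath-13 (F40B1.1) had 398 and 482 RPKM in HRDE-1 sRIP, 53.5 and 74.5 RPKM in CSR-1 sRIP, and 378 and 408 RPKM in the input. All 4 genes showed the same order of libraries: overlap between HRDE-1 sRIP and input, and no overlap of either with CSR-1 sRIP.

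Among math genes, math-1 (B0047.4), which neighbours bath-24, led with 217 and 236 RPKM in HRDE-1 sRIP, 28.6 and 32.9 RPKM in CSR-1 sRIP, and 213 and 241 RPKM in the input. Math-31 (F52C6.6) followed with 72.3 and 88.1 RPKM in HRDE-1 sRIP, 5.67 and 6.31 RPKM in CSR-1 sRIP, and 64.6 and 79.2 RPKM in the input. Both repeated the order of libraries of the leading bath genes. Math-44 (Y16E11A.1) had 55.2 and 60.5 RPKM in HRDE-1 sRIP, 4.53 and 5.41 RPKM in CSR-1 sRIP, and 32.96 and 32.3 RPKM in the input. Math-43 (Y108F1.4) had 40.8 and 44.7 RPKM in HRDE-1 sRIP, 8.90 and 12.7 RPKM in CSR-1 sRIP, and 23.0 and 25.5 RPKM in the input, and is annotated as a pseudogene. In these last 2 genes both HRDE-1 libraries lay above both input libraries, and both CSR-1 libraries lay below.

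**Figure D2:**
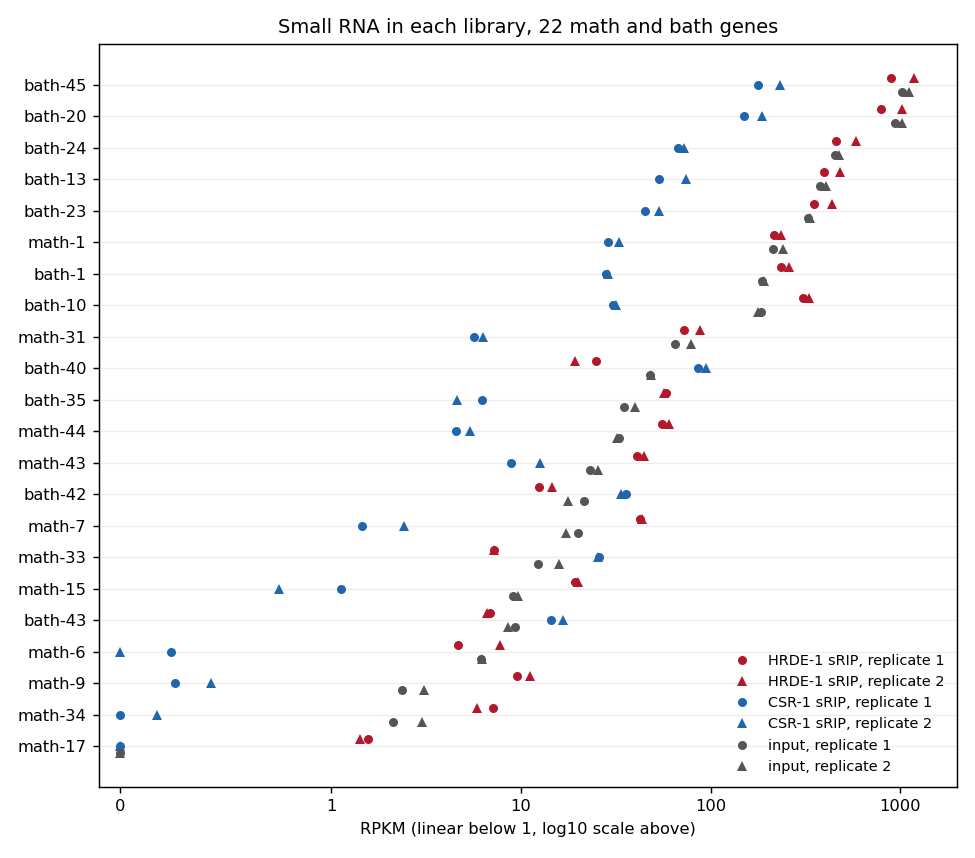
RPKM in each of the 6 libraries for 22 math and bath genes, ordered by mean input level, on an axis that is linear below 1 and log10 above. Circles are replicate 1 and triangles replicate 2; the CSR-1 points lie to the left of the other libraries for most genes, and to the right for bath-40, bath-42, bath-43 and math-33.

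Differences between groups were tested on log2(RPKM + 1) with limma over 10908 genes that reached 1 RPKM in at least 2 libraries, and a gene was called with a Benjamini-Hochberg adjusted p under 0.05 and a log2 fold change of at least 1 in either direction. Adding 1 RPKM makes the fold change of a gene with little small RNA smaller than the change in its reads. Of the math and bath genes, 54 passed this filter, 23 math and 31 bath, and 49 of them had at least 1 RPKM in both input libraries. The other 5, all math, lacked that input level and passed by way of other libraries, so the filter bore on their direction.

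HRDE-1 sRIP held more small RNA than CSR-1 sRIP against most of the tested members. HRDE-1 sRIP was higher for 46 of 54, 20 of 23 math and 26 of 31 bath genes, where 43.7% of all tested genes were called higher, and lower for 4, where 26.6% of all tested genes were called lower. The median log2 fold change was 2.07, against 0.60 over all tested genes, and 2.15 with the 6 members that lacked reads in a group placed at their bound. Among the 49 members with at least 1 RPKM in both input libraries, 42 were higher and 4 lower, where 42.1% and 29.4% of all genes so filtered were called. The median was 2.05 for math genes, or 2.48 with members lacking reads at their bound, and 2.09 for bath genes, although the levels of the families were far apart. The libraries of HRDE-1 sRIP lay above those of CSR-1 sRIP for 49 of 54 members, where this held for 53.7% of all tested genes, and below for 5, where this held for 39.5%.

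**Figure D3:**
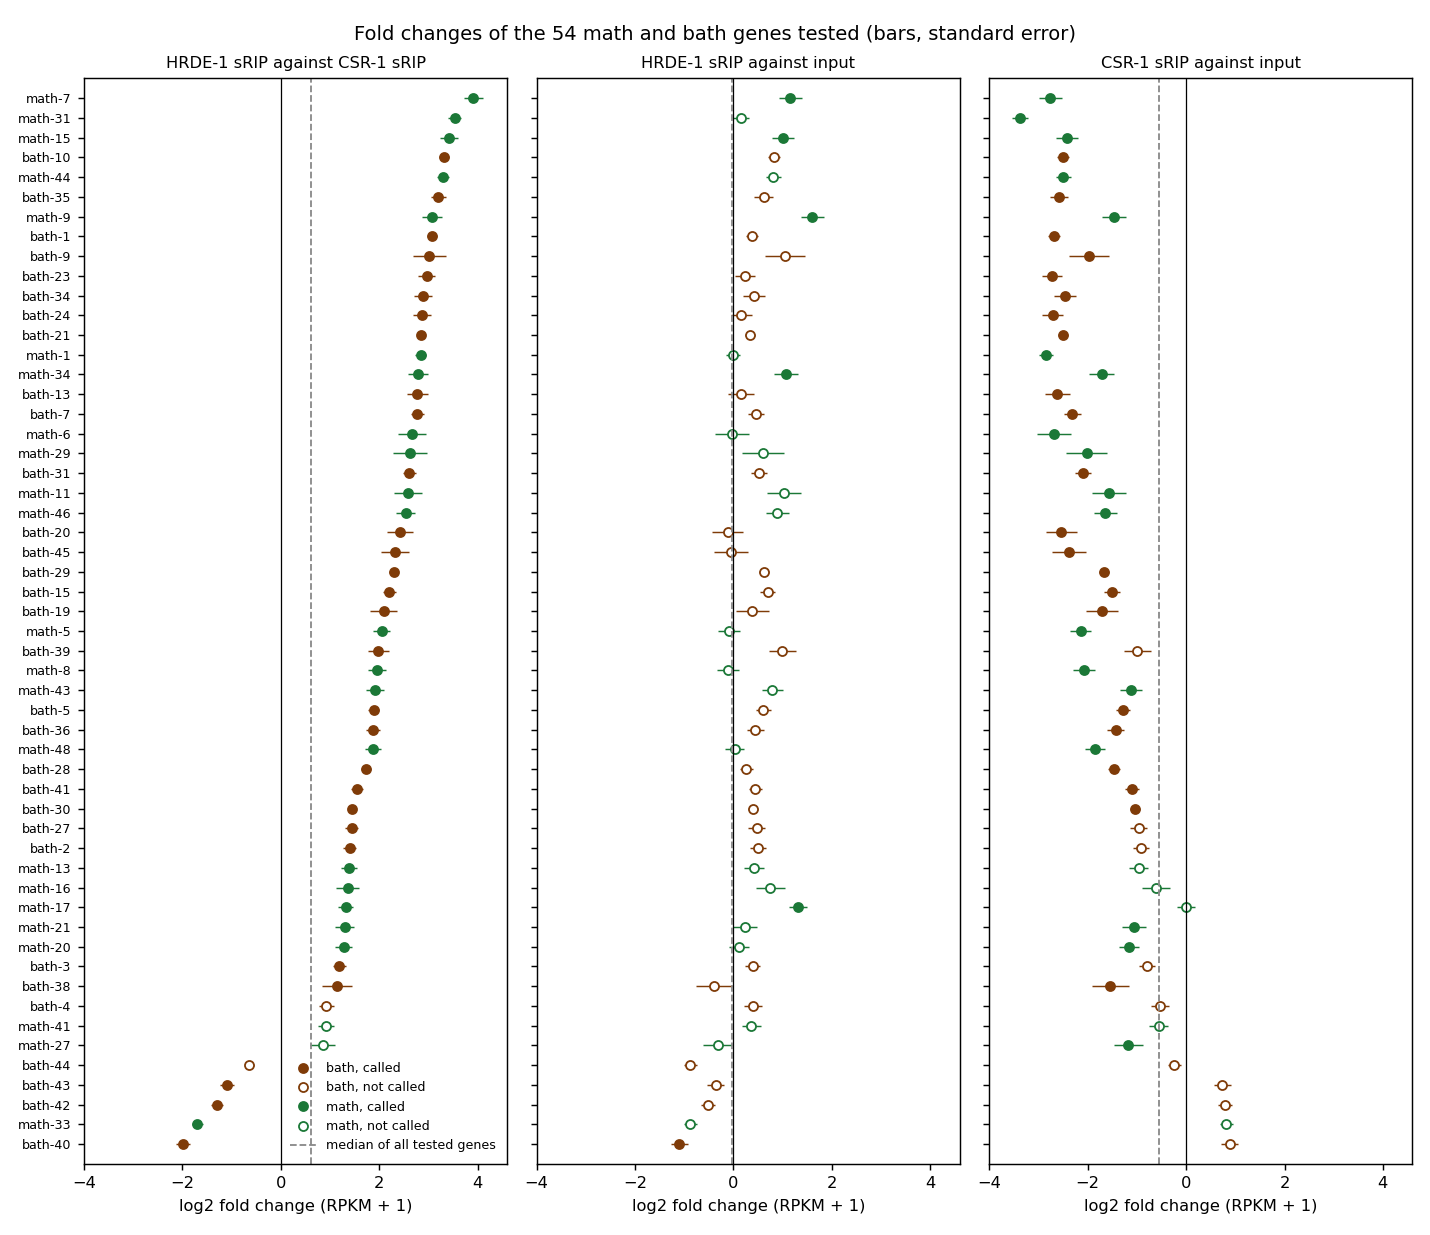
Log2 fold changes on the log2(RPKM + 1) scale for the 54 members tested, with standard errors as bars, for HRDE-1 sRIP against CSR-1 sRIP (left), HRDE-1 sRIP against input (middle) and CSR-1 sRIP against input (right). Filled points were called, open points were not, and the dashed line is the median of all 10908 genes tested; 46 members were called higher in the left panel and 40 lower in the right panel. The middle and right panels share the input libraries, and the left panel shares a group with each.

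On the log2(RPKM + 1) scale the difference between the precipitates was widest for math-7 (C16C4.12), with 42.3 and 43.3 RPKM in HRDE-1 sRIP, 1.46 and 2.43 RPKM in CSR-1 sRIP, and 19.99 and 17.3 RPKM in the input. Its log2 fold change of HRDE-1 sRIP over CSR-1 sRIP was 3.91 ± 0.20 (standard error, adjusted p = 7.66e-05). Math-31 followed at 3.53 ± 0.13 (adjusted p = 4.94e-05) and math-44 reached 3.30 ± 0.12 (adjusted p = 4.94e-05), with the levels given above. Math-15 (C16C4.5) had 19.35 and 20.04 RPKM in HRDE-1 sRIP, 1.12 and 0.750 RPKM in CSR-1 sRIP, and 9.05 and 9.60 RPKM in the input, a log2 fold change of 3.42 ± 0.18 (adjusted p = 8.55e-05). Of these 4 math genes, all neighbours within one region of chromosome II, each had both CSR-1 libraries below all others.

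Bath-10 (Y49F6C.4) showed the widest difference among bath genes on the same scale, with 308 and 331 RPKM in HRDE-1 sRIP, 30.5 and 31.8 RPKM in CSR-1 sRIP, and 183 and 178 RPKM in the input. Its log2 fold change of HRDE-1 sRIP over CSR-1 sRIP was 3.32 ± 0.10 (adjusted p = 4.51e-05). Bath-35 (W02A11.8), on chromosome I, had 58.2 and 56.9 RPKM in HRDE-1 sRIP, 6.25 and 4.59 RPKM in CSR-1 sRIP, and 34.8 and 39.8 RPKM in the input, a log2 fold change of 3.20 ± 0.15 (adjusted p = 6.89e-05). Bath-1 (F59H6.9) had 236 and 257 RPKM in HRDE-1 sRIP, 28.2 and 28.9 RPKM in CSR-1 sRIP, and 187 and 191 RPKM in the input, a log2 fold change of 3.07 ± 0.10 (adjusted p = 4.51e-05). In these 3 genes the HRDE-1 libraries were the highest, the input libraries intermediate and the CSR-1 libraries the lowest, without overlap.

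Where CSR-1 sRIP held 1 to 3 reads, the fitted fold change rests on the added 1 RPKM, and the ratio of reads is given instead, with an interval that covers counting error only and treats the reads of both libraries as independent. Math-9 (C16C4.14) had 36 and 28 reads in HRDE-1 sRIP, 1 and 1 in CSR-1 sRIP, and 5 and 5 in the input, a ratio of HRDE-1 sRIP to CSR-1 sRIP relative to the library totals of 31.5 (95% exact interval 8.36 to 265). Math-34 (M01D1.2a) had 66 and 36 reads in HRDE-1 sRIP, 0 and 1 in CSR-1 sRIP, and 11 and 12 in the input, and its ratio of 100.3 had an interval from 17.6 to 3999. Math-6 (C16C4.11) had 19 and 21 reads in HRDE-1 sRIP, 1 and 0 in CSR-1 sRIP, and 14 and 11 in the input, and its ratio of 39.3 had an interval from 6.67 to 1592. All 3 ratios exceed the 23.4 (13.2 to 45.9) of math-7, with intervals that overlap it. All 3 were called higher in HRDE-1 sRIP, and the width of the intervals shows how few CSR-1 reads stand behind the size of each difference.

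The 4 members called lower ran the other way: bath-40, math-33, bath-42 and bath-43. Bath-40 (Y105E8B.4) had 24.9 and 19.35 RPKM in HRDE-1 sRIP, 86.2 and 94.0 RPKM in CSR-1 sRIP, and 47.6 and 48.7 RPKM in the input, a log2 fold change of HRDE-1 sRIP over CSR-1 sRIP of -1.99 ± 0.14 (adjusted p = 0.000178). Math-33 (H19N07.2a), the worm counterpart of the mammalian deubiquitinase USP7, had 7.205 and 7.235 RPKM in HRDE-1 sRIP, 25.9 and 25.5 RPKM in CSR-1 sRIP, and 12.4 and 15.9 RPKM in the input. Its log2 fold change was -1.70 ± 0.11 (adjusted p = 0.000131), and its model overlaps a gene on the other strand, scb-1. Both genes had their input libraries between the precipitates, without overlap.

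Bath-42 (C50C3.8.1) had 12.5 and 14.6 RPKM in HRDE-1 sRIP, 35.7 and 33.6 RPKM in CSR-1 sRIP, and 21.4 and 17.8 RPKM in the input, a log2 fold change of HRDE-1 sRIP over CSR-1 sRIP of -1.30 ± 0.12 (adjusted p = 0.000342). Bath-43 (T16H12.5b.1), listed as spop-1 in the WBcel235 annotation after the human ligase adaptor SPOP, had 6.89 and 6.59 RPKM in HRDE-1 sRIP, 14.5 and 16.6 RPKM in CSR-1 sRIP, and 9.33 and 8.53 RPKM in the input, a log2 fold change of -1.09 ± 0.14 (adjusted p = 0.00125). Relative to the input these 4 genes were the only tested members whose CSR-1 libraries both lay above both input libraries, with log2 fold changes of 0.89 ± 0.18 for bath-40, 0.82 ± 0.13 for math-33, 0.79 ± 0.14 for bath-42 and 0.74 ± 0.17 for bath-43, each short of the log2 fold change of 1 that a call requires. With library medians made equal, all 4 were called higher in CSR-1 sRIP than in the input, with log2 fold changes between 1.2 and 1.35. None of the 4 lies within 50 kb of another member in WBcel235.

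Chosen after its values were seen, bath-44 (C07D10.2b.1) was the remaining tested member with less small RNA in HRDE-1 sRIP than in CSR-1 sRIP, with 13.2 and 14.2 RPKM in HRDE-1 sRIP, 22.01 and 21.7 RPKM in CSR-1 sRIP, and 26.2 and 25.6 RPKM in the input. Its log2 fold change of -0.64 was too small for a call. The other 3 members without a call between the precipitates, bath-4, math-27 and math-41, had log2 fold changes of 0.93, 0.85 and 0.92.

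Against the input, CSR-1 sRIP held less small RNA for most members. CSR-1 sRIP was lower for 40 of 54, 18 of 23 math and 22 of 31 bath genes, where 36.8% of all tested genes were called lower, and higher for 0, where 7.13% were called higher. At an unadjusted p under 0.05 in limma, in either direction, there were 51 of the 54 members and 7939 of all 10908 genes tested. The median log2 fold change was -1.61, against -0.54 over all tested genes. Both CSR-1 libraries lay below both input libraries for 49 members, where this held for 53.9% of all tested genes, and above for 4, where this held for 33.2%. Among the 49 members with at least 1 RPKM in both input libraries, 39 were lower, where 40.1% of all genes so filtered were, and 0 higher, where 7.44% were. Making library medians equal raised the median of all genes by 0.46 on the log2 scale in this comparison and left 32 members lower, where 27.2% of all tested genes were, and 4 higher, where 23.3% were.

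On the log2(RPKM + 1) scale the deepest falls in CSR-1 sRIP were those of math-31 at a log2 fold change of -3.38 ± 0.16 (adjusted p = 0.000303) and math-1 at -2.85 ± 0.14 (adjusted p = 0.000316), both among the 4 math genes with the most input. By reads, math-6, math-34, math-8 and math-20, with 1 to 3 reads in CSR-1 sRIP, had smaller ratios to the input than the 0.0833 (0.0451 to 0.144) of math-31, with intervals that overlap it. Math-7 followed at -2.76 ± 0.24 (adjusted p = 0.000915). Math-6, also among the 8 largest falls on this scale, had 1 read in CSR-1 sRIP, and its ratio of CSR-1 sRIP to input reads relative to the library totals was 0.0242 (95% exact interval 0.00059 to 0.148). Among bath genes, bath-23 (Y49F6C.5) had 349 and 434 RPKM in HRDE-1 sRIP, 44.9 and 53.4 RPKM in CSR-1 sRIP, and 324 and 335 RPKM in the input, a log2 fold change of CSR-1 sRIP over the input of -2.73 ± 0.21 (adjusted p = 0.000647). Bath-24 fell by 2.71 on the log2 scale, bath-1 by 2.68 and bath-13 by 2.62, with adjusted p between 0.000296 and 0.00137. In each of these 8 genes the CSR-1 libraries lay below both input libraries, and their mean input ranged from 6.19 RPKM for math-6 to 463 RPKM for bath-24.

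Against the input, HRDE-1 sRIP differed little for most members. HRDE-1 sRIP was higher for 5 of 54, where 7.15% of all tested genes were called higher, and lower for 1, where 10.3% were called lower, so the members' share of higher calls, 9.26%, was near that of all genes. All 5 were math genes, math-9, math-17, math-7, math-34 and math-15, and the 1 lower was bath-40. By family, 21.7% of the 23 math genes tested and 0 of the 31 bath genes were thus called higher, a difference that was not tested. Math-17 passed the filter through its HRDE-1 libraries alone, so its direction was fixed by the filter. The median log2 fold change was 0.40, against -0.03 over all tested genes. Both HRDE-1 libraries lay above both input libraries for 35 members, where this held for 37.8% of all tested genes, and below for 6, where this held for 41.7%. Among the 49 members with at least 1 RPKM in both input libraries, 4 were higher and 1 lower, where 6.18% and 11.6% of all genes so filtered were called. The 4 higher made 22.2% of the 18 math genes so filtered.

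The 5 math genes called higher had mean input levels from 0 RPKM for math-17 to 18.6 RPKM for math-7. Math-9 had 9.55 and 11.1 RPKM in HRDE-1 sRIP, against 2.37 and 3.07 RPKM in the input, a log2 fold change of 1.61 ± 0.24 (adjusted p = 0.0113). Math-7 reached 1.16 ± 0.24 (adjusted p = 0.0204) and math-15 reached 1.00 ± 0.22 (adjusted p = 0.0237), with the levels given above. Math-34 had 7.13 and 5.84 RPKM in HRDE-1 sRIP, against 2.12 and 3.003 RPKM in the input, a log2 fold change of 1.07 ± 0.25 (adjusted p = 0.0269). Math-17 (C16C4.9), an annotated pseudogene, had 5 and 3 reads in HRDE-1 sRIP and none in the CSR-1 and input libraries, so that HRDE-1 sRIP was at least 1.59-fold higher than the input and at least 2.62-fold higher than CSR-1 sRIP, with a floor of 3 reads over the group without reads. Bath-40 had a log2 fold change of -1.10 ± 0.18 (adjusted p = 0.0125).

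These 6 calls against the input were sensitive to single libraries and to scaling. With the input as 1 sample and 1 CSR-1 library omitted, whichever it was, no member was called, and no gene of the table either, in fits with 1 residual degree of freedom. Without HRDE-1 replicate 1 there was 1 call higher, without HRDE-1 replicate 2 there were 2, and without either of them bath-40 was not called lower. Making library medians equal raised the median of all genes by 0.39 on the log2 scale and gave 15 members higher, 10 math and 5 bath, where 20.7% of all tested genes were, and 0 lower, where 3.05% were. Counting the input as 2 samples gave 8 higher and 1 lower.

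By position, 71 of the 85 members located in WBcel235 lie on chromosome II, 45 of 48 math and 26 of 37 bath genes. The deposited table gives no coordinates, so positions are those of the gene models of the same sequence name in the Ensembl annotation of WBcel235. For math-1, math-44, math-47 and math-48 the deduced model length exceeded the whole span of the WBcel235 gene. The deposited models of these genes therefore differ from those whose position and annotation are given here. A run of 47 members, 37 math and 10 bath, none more than 50 kb from the next, spans chrII:1763372-2046656 and holds math-7, math-9, math-15, math-17, math-31, math-44, math-1, bath-1, bath-20 and bath-24. Of its members 28 were tested. HRDE-1 sRIP was higher than CSR-1 sRIP for 25 of them, where 43.7% of all tested genes were called higher, and lower for 0. The 5 tested members without 1 RPKM in both input libraries, math-11, math-13, math-16, math-17 and math-41, all lie in this run. Each reached the filter by way of HRDE-1 sRIP, which bore on its direction, and all but math-41 are among the calls. A second run of 7 bath genes spans chrII:3343731-3378834 and holds bath-10, bath-23, bath-27, bath-28, bath-29, bath-30 and bath-9, and all 7 were tested and higher in HRDE-1 sRIP.

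Within the larger run the median bath gene had far more small RNA than the median math gene, although the ranges overlapped. Its 10 bath genes had mean levels from 18.7 to 909 RPKM in HRDE-1 sRIP, from 9.39 to 168 RPKM in CSR-1 sRIP, and from 13.9 to 975 RPKM in the input, with none below the test's filter. Its 37 math genes had a median of 0.884 RPKM in HRDE-1 sRIP, 0.106 RPKM in CSR-1 sRIP and 0.511 RPKM in the input, and 18 were tested. Math-1, at a mean of 227 RPKM in the input, and math-31, math-44 and math-7 lay within the input range of the bath genes. Tested members of both families in the run had log2 fold changes of HRDE-1 sRIP over CSR-1 sRIP above 0, from 0.85 to 3.91 for math and from 0.93 to 3.07 for bath genes. Small RNA against 2 smaller runs on chromosome II was too scarce to test, in chrII:1577378-1606179 with 1 math and 4 bath genes and in chrII:2099926-2155220 with 4 math genes.

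**Figure D4:**
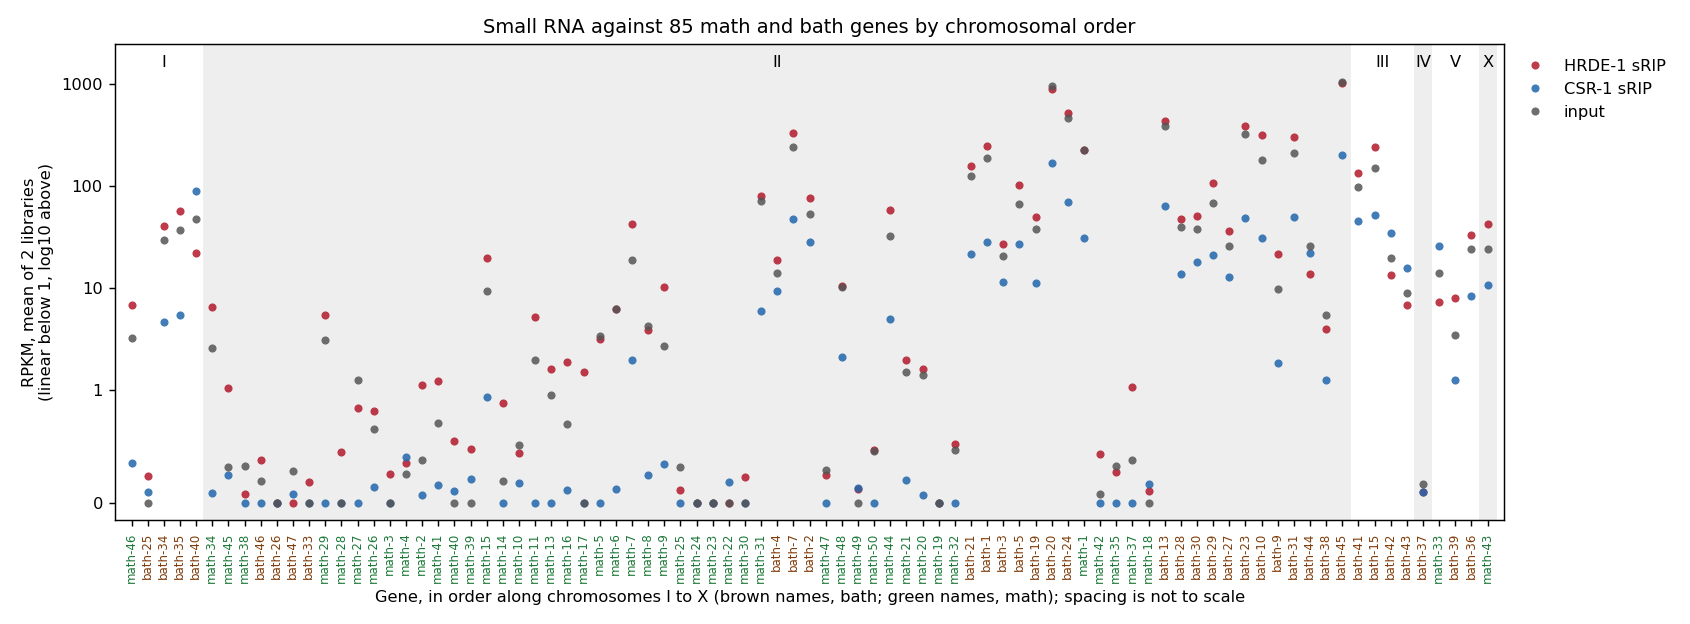
Mean RPKM of 2 libraries for HRDE-1 sRIP, CSR-1 sRIP and the input at 85 math and bath genes, placed in their order along chromosomes I to X without regard to distance, on an axis that is linear below 1 and log10 above. Bath names are brown and math names green; genes on chromosome II range from 0 to 1063 RPKM in the input, and among tested genes the CSR-1 points exceed the HRDE-1 points at bath-44 on chromosome II and at bath-40, bath-42, bath-43 and math-33 on other chromosomes.

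On chromosome II as a whole, HRDE-1 sRIP was higher than CSR-1 sRIP for 38 of 42 tested members and lower for 0, with bath-44 below without a call. On the other chromosomes it was higher for 8 and lower for 4 of 12 tested members. Of all tested genes 43.7% were called higher and 26.6% lower. The 33.3% lower on the other chromosomes was near the latter. Members with a neighbour from the families within 50 kb were higher in 34 of 37 tested and lower in 0, and members without one were higher in 12 and lower in 4 of 17. The 23.5% lower among members without a neighbour was also near the share of all tested genes. The counts for chromosome II and for members with a neighbour include math-11, math-13, math-16 and math-17. These were called higher and reached the filter by way of HRDE-1 sRIP, which bore on their direction. Family and position are linked, since 42 of the 65 clustered members are math genes and 14 of the 20 single ones are bath genes, and among bath genes alone the counts were 18 higher and 0 lower of 19 clustered, and 8 higher and 3 lower of 12 single. The difference between clustered and single members was not tested.

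Of the 32 members that could not be tested, 26 were math and 6 bath genes. They had 125 reads in HRDE-1 sRIP, 25 in CSR-1 sRIP and 39 in the input over all of them, and the highest single value was 1.40 RPKM, for math-2 in an HRDE-1 library. Math-19, math-23, math-24 and bath-26 had no read in any library. Most had too few reads for a difference between the groups to be detectable. An interval of the ratio of HRDE-1 sRIP to CSR-1 sRIP reads was made only for members with reads in both. It lay above 1 for 3 of these, chosen after their values were seen: math-2 at 13.8 (95% exact interval 2.09 to 582), math-26 at 5.90 (1.72 to 31.3) and math-45 at 5.41 (1.18 to 50.2). Among members without CSR-1 reads, the largest bounds, with a floor of 3 reads, were at least 2.95-fold higher in HRDE-1 sRIP for math-28, 2.62-fold for math-42 and 2.29-fold for math-14. Of the math genes 11, and of the bath genes 0, are annotated as pseudogenes, and 5 of the 11 were tested. HRDE-1 sRIP was higher than CSR-1 sRIP for 4 of these, where 43.7% of all tested genes were called higher, and lower for 0. Math-11 and math-17, among those called, reached the filter by way of HRDE-1 sRIP, which bore on their direction.

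The 32 tested members not singled out by size or level, 12 math and 20 bath, mostly held more small RNA in HRDE-1 sRIP than in CSR-1 sRIP. Their log2 fold changes of HRDE-1 sRIP over CSR-1 sRIP ran from -0.64 for bath-44 to 3.02 for bath-9, with 28 called higher and 0 lower. In CSR-1 sRIP against the input they ran from -2.51 for bath-21 to -0.24 for bath-44, with 23 called lower. In HRDE-1 sRIP against the input they ran from -0.87 for bath-44 to 1.05 for bath-9, and none was called. In the annotation 16 members overlap another protein-coding gene or a pseudogene, other gene types not being counted. The 9 of these that were tested had 8 called higher and 1, math-33, called lower between the precipitates.

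Most genes of a list around the CUL-3 ligase, to which BATH proteins are known to bind, had less small RNA in HRDE-1 sRIP than in CSR-1 sRIP. The list held 17 genes, and all passed the filter. It held cul-3, rbx-1 and mel-26 of the ligase itself, the katanin subunits mei-1 and mei-2, and genes of the NEDD8 cycle, csn-1 to csn-6 among them. Both HRDE-1 libraries lay below both CSR-1 libraries for 16 of the 17, where this held for 39.5% of all tested genes. HRDE-1 sRIP was called lower for 9, where 26.6% of all tested genes were, and higher for 0, where 43.7% were. The median log2 fold change was -1.30. The 9 were cul-3, csn-2, csn-3, csn-6, dcn-1, rfl-1, ubc-12, ula-1 and mei-2, so of the ligase itself only cul-3 was called. Rbx-1 had a log2 fold change of -0.65. Cul-3, the scaffold itself, had 6.31 and 6.10 RPKM in HRDE-1 sRIP, 28.6 and 27.1 RPKM in CSR-1 sRIP, and 12.7 and 12.7 RPKM in the input, with CSR-1 sRIP higher than the input by 1.07 ± 0.14 (adjusted p = 0.00296) and HRDE-1 sRIP lower than CSR-1 sRIP at -2.0 ± 0.12 (adjusted p = 0.000101). Mel-26, a BATH adaptor without a bath symbol, had 17.3 and 14.6 RPKM in HRDE-1 sRIP, 26.7 and 24.3 RPKM in CSR-1 sRIP, and 30.3 and 33.8 RPKM in the input, and was called in no comparison, with log2 fold changes of -0.64 between the precipitates, -0.96 for HRDE-1 sRIP against the input and -0.32 for CSR-1 sRIP against the input. Its input libraries lay above all 4 precipitate libraries.

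Other genes of BTB and F-box type, F-box proteins being adaptors of a related ligase, were counted for comparison. Of 25 genes named btb or kel, 18 were tested, and HRDE-1 sRIP was higher than CSR-1 sRIP for 14 and lower for 2, with a median log2 fold change of 1.98. Of 305 F-box genes named fbxa or fbxb, 202 were tested, and HRDE-1 sRIP was higher for 181 and lower for 6, with a median of 2.57. Of all tested genes 43.7% were called higher and 26.6% lower, with a median of 0.60. Against the input, CSR-1 sRIP was lower for 155 of the 202 F-box genes and 10 of the 18 BTB genes, and higher for 0 in either list. Of all tested genes 36.8% were called lower and 7.13% higher in that comparison. No test of a difference between these lists and the math and bath genes was made.

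As a check on the precipitates, 5 germline genes (glh-1, pgl-1, mex-5, oma-2 and cpg-2) had medians of 14.4 and 12.9 RPKM in HRDE-1 sRIP, 98.8 and 112 RPKM in CSR-1 sRIP, and 35.1 and 38.7 RPKM in the input. The median of 30 sperm genes of the msp family was 1.79 and 1.67 RPKM in HRDE-1 sRIP, 0 in both CSR-1 libraries, and 2.80 and 1.45 RPKM in the input. The 3 yolk protein genes of the intestine, vit-2, vit-5 and vit-6, stayed at or below 3.50 RPKM in every library.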

How the data were processed

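Small RNA was sequenced by the authors from HRDE-1 sRIP, CSR-1 sRIP and sRIP input of strain CSS342, 2 libraries each, after phosphatase and T4 polynucleotide kinase treatment, per the labels' protocols. The deposited values are RPKM per gene model, a unit relative to gene length and library total; the submitters' processing notes name Bowtie 1.2.3, and the build, annotation, strand rule and treatment of reads with several matches were not given in the sources used here. The 45 value columns of the other table, whose codes were not tied to samples, were not used.

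Library totals were deduced as the most frequent common divisor between inverted RPKM values taken in pairs. Model lengths were then deduced to make every value a whole number of reads. Of 20938 models, 610 symbols had several, and the one with the highest mean RPKM was kept, leaving 20202 genes. The 86 members had 90 models, with several for 3 members, whose levels are thus those of their highest model. log2(RPKM + 1) was tested with limma 3.58.1 (R 4.3.3; trended prior, 1 mean per group, two-sided, Benjamini-Hochberg adjustment over 10908 genes with at least 1 RPKM in 2 libraries), with the input pair as 1 sample and 2 residual degrees of freedom. The fit was tested on simulated data for HRDE-1 sRIP against the input only. Changes were placed only on genes above a set input level, so changes in genes with little small RNA were not covered. Chromosomes came from the WBcel235 annotation by sequence name, for 85 members; members within 50 kb of each other were joined in runs. Summaries used Python 3.11.15 with pandas 2.3.3.

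Members and lists were chosen with earlier results of these data known. The genes named are those called, up to 8 in each direction of each comparison by size of change with both replicates on the same side, the 4 math and 4 bath genes with the most input, math-33, bath-42, mel-26 and cul-3; others are said to be chosen after their values were seen, or serve only as ends of a range, by reads or in a list. The replicate titles carry one library code for all first replicates and another for all second ones, which no label explains. Alternatives were a pseudocount of 0.1, no filter, equal library medians, 2 input samples, a replicate block and leaving out each library.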

Additional observations from a re-analysis of the deposited data

How the results depend on the processing

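The calls between the precipitates, 46 higher and 4 lower, lay between 46 and 48 higher and at 4 lower under a pseudocount of 0.1, no filter, equal library medians, 2 input samples and the replicate block, and leaving out a library gave 43 to 47 higher and 4 lower. CSR-1 sRIP against the input kept a count of 40 lower within 32 to 44, and within 34 to 42 with a library left out; equal library medians gave 4 higher instead of 0. HRDE-1 sRIP against the input, with 5 higher and 1 lower, gave 2 higher with the pseudocount of 0.1, 3 without the filter, 15 with equal library medians and 8 with 2 input samples, with or without the replicate block; 0 were lower with equal library medians. With a library left out the counts ran from 0 to 6 higher and 0 to 2 lower with the input as 1 sample, and from 4 to 7 higher and 0 to 1 lower with 2 input samples; those last fits were added after seeing the data, and a lone library is then assumed to vary like the other groups. The cause was not tested. Same-numbered libraries of different groups did not deviate together (correlations of 0.03, 0.02 and 0.004), so the numbers were not taken to pair the samples, and the block gave 8 higher and 1 lower against the input for HRDE-1 sRIP, 40 lower for CSR-1 sRIP, and 46 higher and 4 lower between the precipitates.

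For named genes, signs changed only where the gene was not called. In HRDE-1 sRIP against the input, equal library medians gave log2 fold changes of 0.27 for bath-20, 0.0254 for bath-43, 0.33 for bath-45, 0.38 for math-1 and 0.35 for math-6, and in CSR-1 sRIP against the input 0.14 for mel-26. With a library left out, HRDE-1 sRIP against the input ran from -0.2998 to 0.0741 for bath-20, from -0.0168 to 0.332 for bath-24, from -0.248 to 0.1435 for bath-45, from -0.0913 to 0.0828 for math-1 and from -0.345 to 0.279 for math-6. The upper ends came without HRDE-1 replicate 1, except for math-1, where it came without input replicate 2; without input replicate 2 bath-45 stood at 0.01333, and without HRDE-1 replicate 1 math-1 stood at 0.0548. With 2 input samples, leaving out HRDE-1 replicate 1 gave 0.0754 for bath-20, 0.1449 for bath-45, 0.0574 for math-1 and 0.2794 for math-6, and leaving out HRDE-1 replicate 2 gave -0.01635 for bath-24. Of the other comparisons of named genes with an alternative, 338 kept their side of the threshold, 9 passed it and 7 lost it; with a library left out, 667 kept it, 3 passed it and 38 lost it. Depth limits the genes with few reads, above all the 32 members below the filter.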
